A study of Mus musculus with 12 samples.

Results

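The 10 genes described here are imprinted genes of the mouse that are known to be transcribed from the copy inherited from the father: Peg3, Usp29, Mest, Peg10, Sgce, Snrpn, Ndn, Nnat, Plagl1 and Zdbf2. They were taken from a written list of paternally expressed genes that lie outside the distal end of chromosome 7 and outside the chromosome 12 cluster. All 10 were found among the 39017 genes of the deposited table, and all 10 were among the 17885 genes that passed the filter on low counts and were tested.

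The RNA came from mouse embryonic stem cells (mESCs) of the male wild-type line J1 and of the line 3B3L, labelled 3B3-3l. 3B3L derives from Dnmt3a-/- Dnmt3b-/- cells. It carries a Dnmt3b transgene under the CAG promoter and a second transgene, pCAGGS-Dnmt3l-Flag, which also gives resistance to blasticidin, so the line makes a de novo DNA methyltransferase and its cofactor constitutively. Each line was grown with LIF in medium containing serum or in 2i, a serum-free medium with the MEK inhibitor PD0325901 and the GSK3 inhibitor CHIR99021. The base medium also differed between serum and 2i. There were 3 libraries in each of the 4 groups (J1 serum, J1 2i, 3B3L serum and 3B3L 2i), 12 in all, labelled as biological replicates. J1 cells in serum were grown on inactivated SNLP feeder cells that were removed by plating before use, whereas 3B3L cells were grown on gelatin. The comparisons address how a medium that lowers DNA methylation in wild-type mESCs affects these genes, and how a line built to keep methyltransferase expression in that medium differs.

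An imprinted gene is transcribed from only the maternal or the paternal copy because a nearby control region is methylated in egg or sperm and the mark is kept through the divisions of the embryo. For most of the genes described here the methylated copy is the maternal copy, and the mark is held in place by zinc-finger proteins such as ZFP57, which recruit KAP1 (Trim28) to the methylated sequence. The reads were not divided by parental copy, so every level below is the sum over both copies. A lower level in these bulk samples cannot be divided into fewer cells expressing a gene and less RNA per cell.

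The genes lie on 5 chromosomes. On chromosome 7 of GRCm38, Peg3 (positions 6703892 to 6730462, minus strand) and Usp29 (6730559 to 6967220, plus strand) start 97 bases apart and run in opposite directions. Snrpn (59982495 to 60450177, minus strand) and Ndn (62348277 to 62349928, plus strand) lie farther along the same chromosome. On chromosome 6, Sgce (4674350 to 4747204, minus strand) and Peg10 (4747306 to 4760517, plus strand) form another head-to-head pair with starts 102 bases apart, and Mest lies at 30733506 to 30748466 on the plus strand. Nnat lies on chromosome 2 (157560078 to 157562525, plus strand), Plagl1 on chromosome 10 (13090832 to 13131694, plus strand) and Zdbf2 on chromosome 1 (63200358 to 63314576, plus strand).

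The sequences around their starts are shown as a description of the DNA there. Whether these windows cover the control regions of the imprints was not examined. RefSeq start windows of GRCm38.p6, running from 250 bases before a start to 50 bases after it, were given for 8 of the 10 genes, 14 windows in all. Windows for Peg10 and Sgce were not analysed here. The hexamer bound by ZFP57 when methylated, TGCCGC on either strand (GCGGCA when read on the other), was present in 6 of the 14 member windows and in 11.6% of all 32851 windows. The 14 windows are not independent, since those of Peg3 and Usp29 overlap and 2 of the Mest windows start 3 bases apart. These Mest windows are both among the 6, with windows of Snrpn (chr7:60005150-60005449), Nnat, Plagl1 and Zdbf2. The hexamer contains a CpG and the windows were not matched for CpG number, so the shares are not a test of enrichment. The motif GCCATNTT of YY1, searched on both strands, was present in 0 of the 14 windows and in 6.05% of all windows. A match describes the letters of a window and not binding. The 5 windows printed below are the Mest window at chr6:30737800-30738099 (plus strand), the Nnat window at chr2:157559828-157560127 (plus strand), the Plagl1 window at chr10:13090582-13090881 (plus strand), the Zdbf2 window at chr1:63200108-63200407 (plus strand) and the Peg3 window at chr7:6730370-6730669 (minus strand). Each is written 5′ to 3′ on the strand of its gene, with the ZFP57 hexamer in capitals.
Mest: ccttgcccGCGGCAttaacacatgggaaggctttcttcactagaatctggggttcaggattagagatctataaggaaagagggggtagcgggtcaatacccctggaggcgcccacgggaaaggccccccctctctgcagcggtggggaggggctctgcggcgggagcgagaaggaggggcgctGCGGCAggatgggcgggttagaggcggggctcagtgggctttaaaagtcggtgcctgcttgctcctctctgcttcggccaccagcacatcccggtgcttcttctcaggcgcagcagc
Nnat: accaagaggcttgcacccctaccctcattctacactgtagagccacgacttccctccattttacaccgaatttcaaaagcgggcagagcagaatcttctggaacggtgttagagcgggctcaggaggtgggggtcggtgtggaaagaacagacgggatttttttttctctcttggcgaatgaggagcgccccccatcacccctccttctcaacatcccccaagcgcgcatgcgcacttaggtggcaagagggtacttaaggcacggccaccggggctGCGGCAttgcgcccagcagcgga
Plagl1: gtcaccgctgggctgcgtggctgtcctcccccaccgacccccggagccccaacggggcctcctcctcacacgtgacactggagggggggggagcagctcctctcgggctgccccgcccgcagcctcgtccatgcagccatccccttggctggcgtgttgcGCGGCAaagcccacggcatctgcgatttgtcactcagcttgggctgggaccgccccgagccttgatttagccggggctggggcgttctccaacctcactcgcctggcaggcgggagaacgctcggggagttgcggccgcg
Zdbf2: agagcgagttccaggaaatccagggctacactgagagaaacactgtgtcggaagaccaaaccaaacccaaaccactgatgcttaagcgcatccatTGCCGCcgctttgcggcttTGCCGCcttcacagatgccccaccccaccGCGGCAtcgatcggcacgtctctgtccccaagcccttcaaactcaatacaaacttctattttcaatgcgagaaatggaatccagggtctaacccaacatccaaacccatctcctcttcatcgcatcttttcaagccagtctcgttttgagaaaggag
Peg3: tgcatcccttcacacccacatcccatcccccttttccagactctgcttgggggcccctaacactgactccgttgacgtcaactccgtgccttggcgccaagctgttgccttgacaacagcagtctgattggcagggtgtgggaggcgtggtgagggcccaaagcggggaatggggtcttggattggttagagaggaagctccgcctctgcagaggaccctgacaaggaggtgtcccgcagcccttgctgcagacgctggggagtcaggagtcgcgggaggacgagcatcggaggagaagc
The printed Mest window held 2 hexamers, the Nnat and Plagl1 windows 1 each and the printed Zdbf2 window 3, whereas the Mest window at the outermost start (chr6:30733256-30733555, 8 CpG) and the other Zdbf2 window held 0. Likewise the Peg3 window, which covers the shared start region of Peg3 and Usp29, held 0. CpG dinucleotides numbered 17 in the printed Mest window, 17 in that of Nnat, 26 in that of Plagl1, 15 in that of Zdbf2 and 13 in that of Peg3, against a median of 7 over all windows. Over the 14 member windows the number ran from 2, in a Snrpn window, to 38, in the second Zdbf2 window at chr1:63273019-63273318.

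The libraries held 37050652 to 44515395 estimated reads, and a count of 3 was worth 0.0674 to 0.081 CPM (counts divided by the effective size of the library, on a scale shared by all libraries). The labels were checked on the methyltransferase genes. Dnmt3b stood at 404 to 427 CPM in J1 serum, 41.0 to 47.2 in J1 2i, 866 to 927 in 3B3L serum and 914 to 936 in 3B3L 2i, and Dnmt3l at 285 in each J1 serum library, 47.9 to 55.5 in J1 2i, 448 to 511 in 3B3L serum and 285 to 294 in 3B3L 2i. Dnmt3a, disrupted in 3B3L, stood at 166 to 167 CPM in J1 serum and 38.9 to 44.4 in J1 2i, against 29.4 to 34.3 in 3B3L serum and 4.01 to 5.08 in 3B3L 2i. All 8 stem cell markers of a written list were detected in each group. Their summed level was 4271 to 4277 CPM in J1 serum, 3872 to 4378 in J1 2i, 3763 to 4234 in 3B3L serum and 4607 to 4741 in 3B3L 2i. Single stem cell markers moved in both directions on 2i. In J1 3 rose and 4 fell, and in 3B3L 3 rose and 3 fell. In J1 Nanog had means of 307 CPM in serum and 631 in 2i, and Utf1 258 in serum and 81.8 in 2i. Fibroblast markers (20 genes) differed between the media in both lines. Their summed level was 122.5 to 139 CPM in J1 serum and 175 to 195.7 CPM in 3B3L serum, against 51.4 to 52.9 CPM in J1 2i and 40.0 to 41.1 in 3B3L 2i. Of the 15 fibroblast markers tested 13 fell on 2i in each line, among them Col1a1, a collagen gene, with means of 28.1 CPM in J1 serum and 3.28 in J1 2i, while Pdgfrb rose in J1. Mmp2, Col1a1 and Col5a1 made up most of the fibroblast sum in serum, and Pdgfrb and Col5a1 most of it in 2i. Lum and Fap were at or under 3 counts in every library. Dcn and Postn were low in serum too, with means of 0.0913 and 0.134 CPM in J1 serum. Early neural markers (7 of 8 matched) were likewise higher in serum in their sum, at 207.5 to 214 CPM in J1 serum and 187 to 213 in 3B3L serum, against 110 to 130 in J1 2i and 122 to 129 in 3B3L 2i. Tubb3 and Nes made up most of that sum, and Tubb3 had means of 82.8 CPM in 3B3L serum and 87.0 in 3B3L 2i. Of the 5 early neural markers tested 4 fell and 0 rose on 2i in each line. Primitive endoderm markers (10 genes) were summed at 158 to 177 CPM in J1 serum, 188 to 206 in J1 2i, 202.5 to 207.5 in 3B3L serum and 150 to 152 in 3B3L 2i. Lama1 made up most of that sum. Of the 9 tested 3 rose and 3 fell on 2i in J1 (median log2 fold change −0.48), with Col4a1 at 51.3 CPM in J1 serum and 10.1 in J1 2i. In 3B3L 0 rose and 6 fell (median −1.14). The 2i effect in 3B3L minus that in J1 passed below 0 for 5 of these 9 and above 0 for 0. It did so for 5 and 1 of the 15 fibroblast markers, and for 0 and 1 of 5 early neural markers. Over all genes 18.3% passed below 0 and 16.3% above. On 2i 32.9% of all genes fell and 33.2% rose in J1, and 32.7% moved in each direction in 3B3L. The part of these other cell types in the differences below was not tested.

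Most of the 10 genes were lower in 2i than in serum, and by more in 3B3L than in J1. In J1, 7 genes fell, 2 rose (Plagl1 and Mest) and 1 did not pass the test (Usp29), where 66.1% of all genes tested passed, 32.9% lower and 33.2% higher. In 3B3L, 9 genes fell and 1 rose (Plagl1), where 65.4% of all genes passed, 32.7% in each direction. The median log2 fold change of the 10 genes was −0.67 in J1 and −1.77 in 3B3L, against a median over all genes of 0.01 in each line. The 2 groups of libraries did not overlap for any of the 10 genes in J1 or in 3B3L, which held for 68.7% and 69.6% of all genes. A change of at least 2-fold was found for 5 genes in J1 (23.2% of all genes) and 9 genes in 3B3L (23.4% of all genes).

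**Figure D1:**
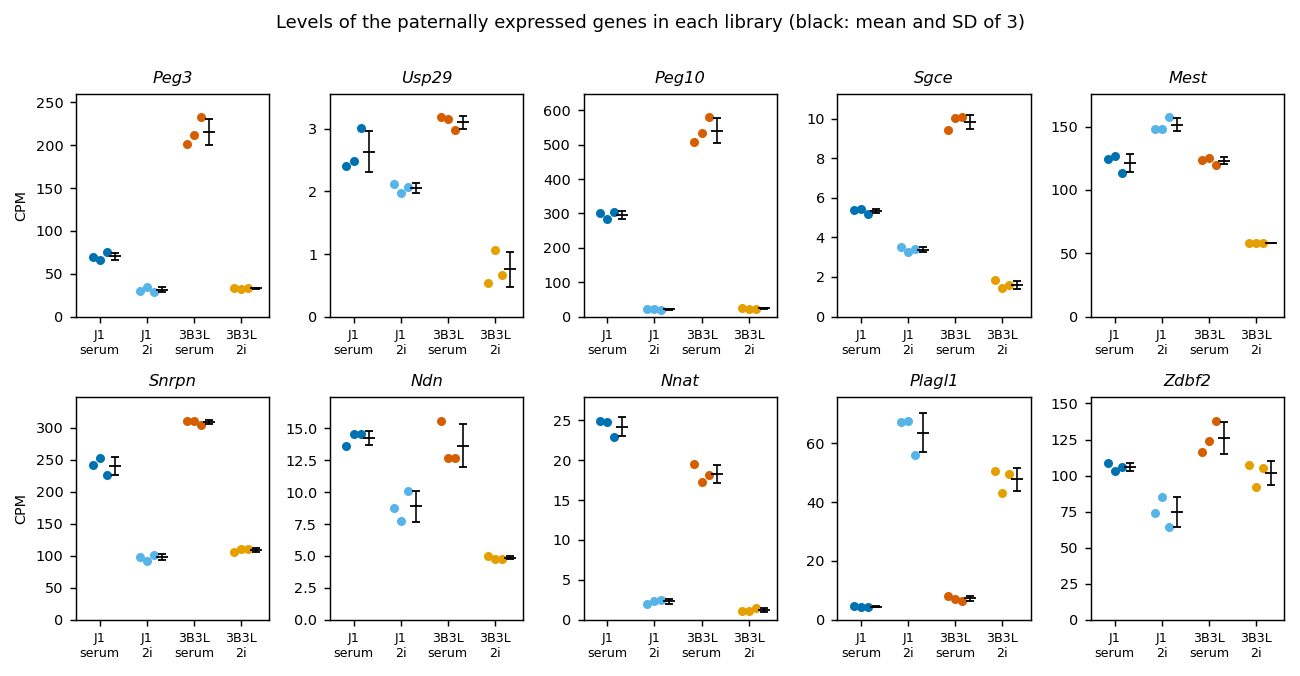
Level of each of the 10 genes in CPM (vertical axis, linear and starting at 0) in the 12 libraries, grouped by line and medium, with coloured points for single libraries and black bars for the mean and SD of 3. Peg10, Nnat and Snrpn were low in 2i in both lines, Plagl1 was high in 2i, and Mest was lowest in 3B3L 2i at 57.8 to 58.3 CPM.

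The zinc-finger genes moved in different directions. Plagl1, a transcription factor that restrains growth and is also known as Zac1, stood at 4.66, 4.41 and 4.20 CPM in the J1 serum libraries and at 67.1, 67.8 and 55.98 CPM in J1 2i. It stood at 8.21, 7.21 and 6.22 CPM in 3B3L serum and at 50.7, 43.3 and 49.5 CPM in 3B3L 2i. Every 2i library was thus above every serum library, and the order of the groups from lowest to highest was J1 serum, 3B3L serum, 3B3L 2i and J1 2i, with no overlap between neighbours. The log2 fold change on 2i was 3.84 ± 0.11 (SE, edgeR adjusted p = 6.47e-14), or 14.4-fold, in J1 and 2.73 ± 0.10 (edgeR adjusted p = 1.22e-12), or 6.63-fold, in 3B3L. A change of at least this size in J1 was found for 1.77% of all genes tested.

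Peg3 encodes a large zinc-finger protein with roles in growth and maternal behaviour. Its level was 69.4, 66.6 and 75.1 CPM in J1 serum and 29.8, 34.3 and 29.2 in J1 2i. In 3B3L it was 202, 212 and 232.5 CPM in serum and 33.6, 32.5 and 33.5 CPM in 2i. The 3B3L serum libraries stood far above the other 9, while the 2i libraries of the lines overlapped. On 2i Peg3 fell by 1.18 on the log2 scale in J1 (SE 0.07, edgeR adjusted p = 5.08e-10) and by 2.70 in 3B3L (SE 0.07, edgeR adjusted p = 3.08e-14).

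Zdbf2, which encodes a protein with a DBF-type zinc finger, changed least of the genes that passed the test in 3B3L. It was measured at 108.7, 103.5 and 106.0 CPM in J1 serum, and at 74.3, 85.5 and 64.2 CPM in J1 2i. In 3B3L it was at 116, 124 and 138 CPM in serum and at 107.5, 92.1 and 105.0 CPM in 2i. The media were separate within each line, but J1 serum and 3B3L 2i overlapped. The log2 fold change on 2i was −0.51 ± 0.09 in J1 (edgeR adjusted p = 0.000116) and −0.31 ± 0.09 in 3B3L (edgeR adjusted p = 0.0053).

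Peg10, a gene derived from a retrotransposon and needed in the placenta, had the largest fall of the 10 in both lines. It was at 300.1, 283 and 304 CPM in J1 serum and at 21.2, 22.8 and 18.6 CPM in J1 2i. It was at 507, 535 and 579.5 CPM in 3B3L serum and at 24.5, 22.8 and 23.1 CPM in 3B3L 2i. The serum groups thus differed from each other, whereas all 6 libraries in 2i lay between 18.6 and 24.5 CPM. The fall was 14.2-fold in J1 (log2 −3.82 ± 0.07, edgeR adjusted p = 2.04e-15) and 23.0-fold in 3B3L (log2 −4.53 ± 0.08, edgeR adjusted p = 3.29e-16). Changes of at least these sizes were found for 1.78% and 1.45% of all genes tested.

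Sgce, the neighbour of Peg10, encodes epsilon-sarcoglycan, a membrane protein. It was a low gene, at 5.38, 5.42 and 5.204 CPM in J1 serum, 3.51, 3.26 and 3.39 in J1 2i, 9.45, 10.1 and 10.1 in 3B3L serum and 1.83, 1.44 and 1.57 in 3B3L 2i. All 4 groups were separate, with the 3B3L groups at both ends of the range. The log2 fold change on 2i was −0.66 ± 0.09 in J1 (edgeR adjusted p = 1.32e-05) and −2.61 ± 0.10 in 3B3L (edgeR adjusted p = 1.74e-12).

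Nnat encodes neuronatin, a small membrane protein of the developing brain, and lies within the gene Blcap. Its levels were 25.0, 24.8 and 22.9 CPM in J1 serum and 2.01, 2.34 and 2.51 in J1 2i. They were 19.5, 17.3 and 18.2 CPM in 3B3L serum and 1.06, 1.07 and 1.497 CPM in 3B3L 2i. The 4 groups did not overlap, and J1 was the higher line in each medium. The fall on 2i was 10.6-fold in J1 (log2 −3.41 ± 0.10, edgeR adjusted p = 1.48e-13) and 15.2-fold in 3B3L (log2 −3.93 ± 0.12, edgeR adjusted p = 8.21e-14). Blcap was at −0.15 on the log2 scale in 3B3L, where it passed the test, and did not pass it in J1.

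Mest and Usp29 belong to enzyme families, Mest to the alpha/beta hydrolases and Usp29 to the ubiquitin-specific proteases. Mest was at 124, 127 and 114 CPM in J1 serum, 148.4, 148.3 and 157 in J1 2i, 124, 125 and 120.0 in 3B3L serum and 57.9, 57.8 and 58.3 in 3B3L 2i. The 2 serum groups overlapped, J1 2i was above them and 3B3L 2i below. On 2i Mest rose by 0.32 ± 0.05 on the log2 scale in J1 (edgeR adjusted p = 2.93e-05) and changed by −1.09 ± 0.05 in 3B3L (edgeR adjusted p = 1.70e-11), so the lines moved in opposite directions.

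Usp29 was measured at low levels in every group. It was at 2.41, 2.48 and 3.01 CPM in J1 serum and 2.12, 1.97 and 2.07 in J1 2i. It was at 3.19, 3.15 and 2.99 CPM in 3B3L serum and 0.529, 1.07 and 0.671 CPM in 3B3L 2i. Only 3B3L 2i stood well apart. The log2 fold change on 2i was −2.03 ± 0.19 in 3B3L (edgeR adjusted p = 1.13e-07). In J1 it was −0.35 ± 0.17 (edgeR adjusted p = 0.0753), and the adjusted p ran from 0.0274 to 0.254 over the alternatives, with 0.0474 without 3B3L 2i replicate 1 and 0.0274 without 3B3L 2i replicate 2.

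Snrpn and Ndn belong to the imprinted domain of central chromosome 7. Snrpn encodes SmN, a spliceosome protein, and was at 241, 252 and 225 CPM in J1 serum, 98.0, 92.2 and 102 in J1 2i, 311, 309.9 and 304.5 in 3B3L serum and 105, 111 and 111 in 3B3L 2i. The media differed far more than the lines. The log2 fold change on 2i was −1.30 ± 0.05 in J1 (edgeR adjusted p = 3.85e-12) and −1.50 ± 0.05 in 3B3L (edgeR adjusted p = 5.57e-13). Ndn encodes necdin, a protein of the MAGE family that restrains the growth of neurons. It was at 13.6, 14.6 and 14.6 CPM in J1 serum, 8.79, 7.71 and 10.1 in J1 2i, 15.6, 12.7 and 12.6 in 3B3L serum and 5.001, 4.80 and 4.77 in 3B3L 2i. The serum groups of Ndn overlapped and the 2i groups did not. Its log2 fold change on 2i was −0.68 ± 0.10 in J1 (edgeR adjusted p = 1.52e-05) and −1.49 ± 0.11 in 3B3L (edgeR adjusted p = 3.56e-09).

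The marker sums above are in CPM and were not divided by length. Members were ranked by level only after division by effective transcript length, as CPM per kb. On this scale Snrpn was the highest of the 9 genes with a length in both serum groups, at 136 in J1 and 176 in 3B3L. In J1 2i Mest was highest at 74.8, above Snrpn at 55.4, and in 3B3L 2i Snrpn was highest at 61.6, above Mest at 27.8. Usp29 was lowest in every group, between 0.308 in 3B3L 2i and 1.28 in 3B3L serum. Plagl1 stood at 2.29 in J1 serum and at 28.8 in J1 2i, below only Mest and Snrpn. For Peg10 only 0.209% of the counts fell on a transcript that could be assigned to it, so no level per length is given.

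The lines were compared within each medium. In serum 6 of the 10 genes were higher in 3B3L than in J1 and 1 was lower, where 38.7% of all genes passed, 21.5% higher and 17.2% lower. The groups did not overlap for 7 of the 10 genes (50.9% of all genes), and 1 gene, Peg3, passed 2-fold (4.58% of all genes). The other higher genes were Sgce, Peg10, Plagl1, Snrpn and Zdbf2, and the lower gene was Nnat. Peg3 was 3.06-fold higher (log2 1.61 ± 0.07, edgeR adjusted p = 2.66e-10), a difference that 1.27% of all genes reached. Sgce differed by 0.89 ± 0.09 (edgeR adjusted p = 1.21e-06) and Peg10 by 0.87 ± 0.06 (edgeR adjusted p = 8.33e-08) on the log2 scale, close to each other in size. Snrpn was higher by 0.36 ± 0.05 (edgeR adjusted p = 4.05e-05), and Nnat was at −0.40 ± 0.08 (edgeR adjusted p = 0.00115). Mest (0.02 ± 0.05), Ndn (−0.06 ± 0.10) and Usp29 (0.24 ± 0.16) did not pass the test, and the groups of these 3 genes overlapped. In the same comparison 7 of 15 fibroblast markers and 8 of 9 primitive endoderm markers tested were higher in 3B3L.

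Plagl1 was higher in 3B3L serum by 0.70 ± 0.12 on the log2 scale (edgeR adjusted p = 0.000264). With offsets for transcript length the difference was 0.35 (adjusted p = 0.156). Zdbf2 was higher by 0.25 ± 0.09 (edgeR adjusted p = 0.0351). It did not pass without J1 serum replicate 1 (0.27, adjusted p = 0.0654), replicate 2 (0.23, 0.107) or replicate 3 (0.25, 0.0807), nor without 3B3L serum replicate 2 (0.26, 0.0667) or replicate 3 (0.18, 0.156).

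In 2i the lines differed mostly in the other direction. There 6 genes were lower in 3B3L and 2 were higher, where 45.9% of all genes passed, 22.9% lower and 23% higher. The groups did not overlap for 9 genes (52.6% of all genes), and 3 genes, Usp29, Mest and Sgce, passed 2-fold (8.09% of all genes). The lower genes were Usp29 (log2 −1.43 ± 0.20, edgeR adjusted p = 2.35e-05), Mest (−1.38 ± 0.05, 1.75e-11), Sgce (−1.07 ± 0.11, 9.82e-07), Nnat (−0.93 ± 0.14, 7.70e-05), Ndn (−0.87 ± 0.11, 8.68e-06) and Plagl1 (−0.41 ± 0.09, 0.000989). The higher genes were Zdbf2 (0.44 ± 0.09, edgeR adjusted p = 0.000749) and Snrpn (0.16 ± 0.05, 0.0167). The Snrpn difference did not pass without J1 serum replicate 1 (0.14, adjusted p = 0.0551), J1 2i replicate 2 (0.13, 0.0741), 3B3L 2i replicate 2 (0.13, 0.115) or 3B3L 2i replicate 3 (0.15, 0.0597). Peg3 was at 0.09 ± 0.07 with overlapping groups. Peg10 was at 0.17 ± 0.07 with an adjusted p of 0.0723 in edgeR, and passed without J1 2i replicate 2 (0.24, 0.0194). Sgce and Plagl1 were therefore higher in 3B3L than in J1 in serum and lower in 2i.

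**Figure D2:**
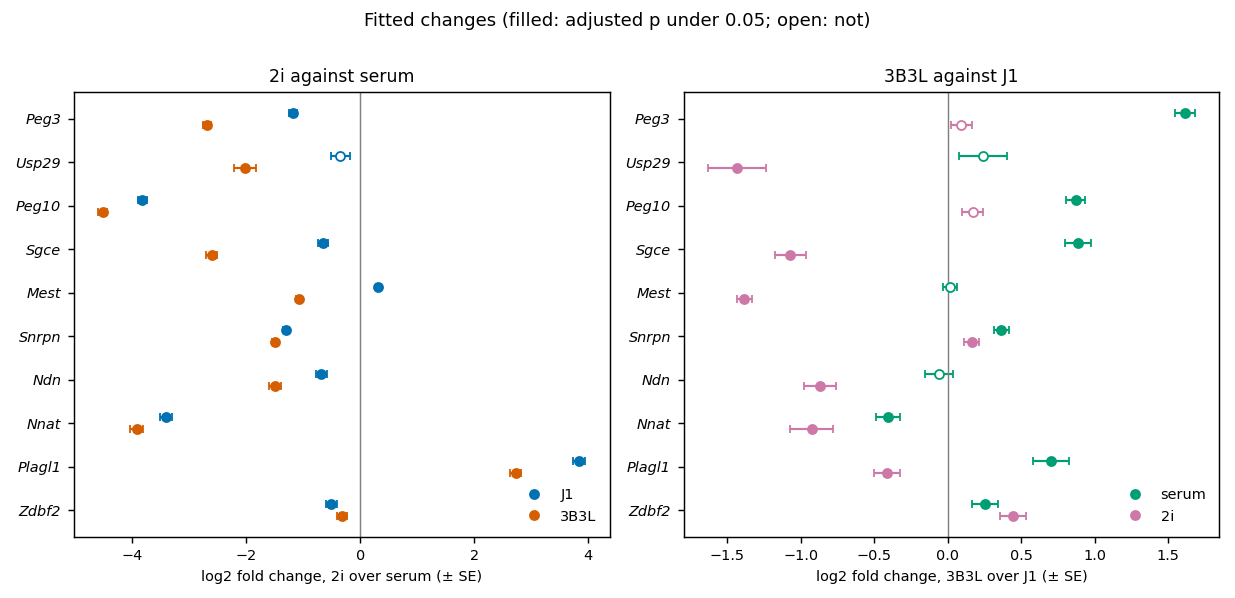
Fitted log2 fold changes ± SE of the 10 genes (horizontal axes), on the left for 2i over serum in J1 and in 3B3L and on the right for 3B3L over J1 in serum and in 2i. Filled points had an adjusted p under 0.05 and open points did not. In the left panel the 3B3L point lies below the J1 point for every gene but Zdbf2, and Mest lies on opposite sides of 0.

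Whether the lines responded differently to 2i was tested directly, as the effect in 3B3L minus the effect in J1. It was below 0 and passed the test for 9 of the 10 genes, where 34.7% of all genes passed, 18.3% below 0 and 16.3% above. The median over the 10 genes was −0.96 and over all genes −0.03. The difference was largest for Sgce (−1.96 ± 0.14, edgeR adjusted p = 7.83e-08), a size that 2.72% of all genes reached, and then for Usp29 (−1.68 ± 0.26, 0.000135), Peg3 (−1.52 ± 0.10, 3.82e-08), Mest (−1.40 ± 0.07, 2.33e-09) and Plagl1 (−1.12 ± 0.15, 3.58e-05). These 5 passed 2-fold, as did 8.22% of all genes. Over its alternatives the Plagl1 difference ran from −1.21 to −0.79, so it was not always 2-fold, though it passed the test in each. The difference was smaller for Ndn (−0.81 ± 0.14, edgeR adjusted p = 0.00051), Peg10 (−0.70 ± 0.10, 5.82e-05) and Nnat (−0.52 ± 0.17, 0.0237). For Zdbf2 it was 0.19 ± 0.13 (edgeR adjusted p = 0.257) and passed without J1 2i replicate 2 (0.30, 0.0473).

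The same difference was −0.20 ± 0.07 for Snrpn (edgeR adjusted p = 0.0422) and did not pass in 11 of 18 alternatives. Among these were the fits without J1 serum replicate 3 (−0.18, adjusted p = 0.0681), J1 2i replicate 1 (−0.19, 0.0808) or 3 (−0.17, 0.0801), each 3B3L serum replicate (−0.19, −0.20 and −0.21, with 0.0667, 0.0843 and 0.0551), and 3B3L 2i replicate 1 (−0.18, 0.107) or 3 (−0.21, 0.0658). For Nnat it did not pass without J1 2i replicate 3 (−0.45, adjusted p = 0.0575), 3B3L 2i replicate 1 (−0.44, 0.0840) or 3B3L 2i replicate 2 (−0.46, 0.0724).

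The head-to-head partners did not change by equal amounts. Peg10 counts were 55.5 ± 3.21 times those of Sgce in J1 serum and 54.8 ± 2.41 times in 3B3L serum (SD, n = 3), and these ratios overlapped although both genes were higher in 3B3L. In 2i the ratio was 6.17 ± 0.753 in J1 and 14.6 ± 1.24 in 3B3L. Peg3 counts were 26.8 ± 1.89 times those of Usp29 in J1 serum and 15.2 ± 1.92 times in J1 2i, against 69.4 ± 7.49 in 3B3L serum and 48.0 ± 16.6 in 3B3L 2i. The wide spread in 3B3L 2i goes with the low level of Usp29 there. These ratios are of counts and were not divided by length, so they show a change between groups and not which partner was more abundant.

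**Figure D3:**
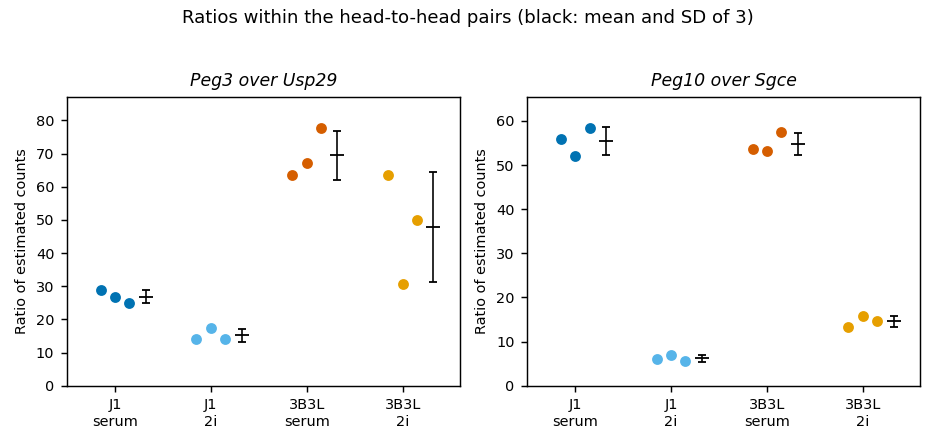
Ratio of estimated counts (vertical axes, from 0) of Peg3 over Usp29 and of Peg10 over Sgce in the 12 libraries, with black bars for the mean and SD of 3. The Peg10 over Sgce ratio was near 55 in both serum groups and lower in 2i, and the Peg3 over Usp29 ratio was higher in both 3B3L groups than in either J1 group.

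Transcript shares were compared for the 7 genes with several transcripts, over 29 transcripts and 116 comparisons. With 3 libraries against 3 the exact two-sided permutation test cannot go below 0.1, so no share could pass, and the comparison is given as whether the groups overlapped. They did not overlap in 11 of the 29 comparisons of 2i with serum in J1 (23.3% of all transcripts compared), 7 in 3B3L (22.8%), 6 between lines in serum (15.6%) and 3 between lines in 2i (15.8%). Snrpn, Peg3 and Mest each had a main transcript in every group. The share of Peg3-001 was 97.7% of TPM in J1 serum, 93.9% in J1 2i, 96.4% in 3B3L serum and 91.3% in 3B3L 2i, and that of Mest-202 was between 81.5% and 86.0%.

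For Zdbf2 and Plagl1 some transcript shares moved in opposite directions in the lines and others in the same direction. Zdbf2-001 held 34.8% of the gene's TPM in J1 serum and 42.8% in J1 2i, but 48.0% in 3B3L serum and 34.9% in 3B3L 2i. The groups were separate in each of these comparisons. Plagl1-001 held 18.3% in J1 serum and 24.7% in J1 2i, but 35.5% in 3B3L serum and 23.2% in 3B3L 2i, again without overlap between the media. Plagl1-003 held 18.4% in J1 serum and 6.01% in 3B3L serum. The serum shares of Plagl1 rest on few reads, with means of 85.6 and 201 for Plagl1-001 and 61.3 and 26.6 for Plagl1-003 in J1 and 3B3L. Plagl1-024, of 624 bases, held 26.0% of TPM in J1 serum on a mean of 10.3 reads. As a share of estimated reads Plagl1-001 held 47.9% in J1 serum and 56.1% in J1 2i. That share was 71.2% in 3B3L serum and 52.0% in 3B3L 2i.

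A list of 30 neighbours was not divided by the parental copy expressed. These genes lie in or next to the same domains and were examined in the same fit. Of these, 26 were matched and 23 tested, while Zfp264, Zim3, Snurf and Snhg14 were not matched. In J1 10 of the 23 fell on 2i, 5 rose and 8 did not pass, where 32.9% of all genes fell and 33.2% rose. In 3B3L 15 fell, 5 rose and 3 did not pass, where 32.7% of all genes moved in each direction. The medians were −0.27 and −0.45. Named after their values were seen, those that rose were Copg2, Cep41, Pon3, Peg12 and Phactr2 in J1, and Copg2, Cep41, Pon3, Phactr2 and Ltv1 in 3B3L. The largest changes among the neighbours were, in both lines, those of Magel2, Atp10a and Calcr. Magel2, a paternally expressed gene of the MAGE family next to Ndn, was at 6.01 ± 0.266 CPM in J1 serum and 8.25 ± 0.130 in 3B3L serum, but at 0.184 ± 0.0603 in J1 2i and 0.0804 ± 0.0478 in 3B3L 2i (SD, n = 3). The 2i levels of Magel2 rest on 24 and 10 counts over 3 libraries. Its log2 fold change was −5.04 ± 0.19 in J1 (edgeR adjusted p = 1.64e-12) and −6.62 ± 0.21 in 3B3L (edgeR adjusted p = 2.06e-13), larger than that of Ndn or Snrpn in the same domain.

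Atp10a, which encodes a phospholipid-transporting ATPase at the other side of the domain, was at 28.4 ± 2.09 CPM in J1 serum and 1.60 ± 0.131 in J1 2i, and at 22.6 ± 1.08 in 3B3L serum and 1.09 ± 0.305 in 3B3L 2i. Its log2 fold change on 2i was −4.15 ± 0.12 in J1 and −4.37 ± 0.13 in 3B3L (edgeR adjusted p = 7.23e-14 and 7.28e-14). Calcr, the calcitonin receptor gene near Peg10 and Sgce, changed by −3.55 ± 0.26 and −4.27 ± 0.20 (edgeR adjusted p = 6.26e-09 and 2.55e-11). The 2i levels of Calcr rest on 15 counts in J1 and 29 in 3B3L over 3 libraries. Like Peg10 and Sgce, Calcr was higher in 3B3L than in J1 in serum, by 1.72 ± 0.15 (edgeR adjusted p = 5.76e-07). The other neighbours named by size in that comparison were Klf14 (1.08 ± 0.39), near Mest, and Zim1 (0.69 ± 0.21), next to Peg3. Klf14 rests on 20 counts over the J1 serum libraries and 42 over the 3B3L serum libraries.

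Peg12, a further paternally expressed gene of the central chromosome 7 domain, changed in the same directions as Mest. It was at 3.96 ± 0.266 CPM in J1 serum and 7.47 ± 0.447 in J1 2i, but at 4.20 ± 0.574 in 3B3L serum and 1.73 ± 0.347 in 3B3L 2i. It rose by 0.91 ± 0.12 in J1 (edgeR adjusted p = 7.88e-06) and changed by −1.28 ± 0.14 in 3B3L (edgeR adjusted p = 9.26e-07), and the difference between these effects was −2.19 ± 0.19 (edgeR adjusted p = 5.59e-07). In 2i it was lower in 3B3L by 2.11 ± 0.14 on the log2 scale, as were Asb4 (−1.94 ± 0.65) and Pdk4 (−0.99 ± 0.11) near Peg10. Asb4 rests on 5 counts over the 3 libraries of 3B3L 2i. Among the neighbours, the 2i effect in 3B3L minus that in J1 passed the test below 0 for 12 and above 0 for 2 (Ltv1 and Eef1b2, named after their values were seen), and 9 did not pass, where 18.3% of all genes passed below 0 and 16.3% above.

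**Figure D4:**
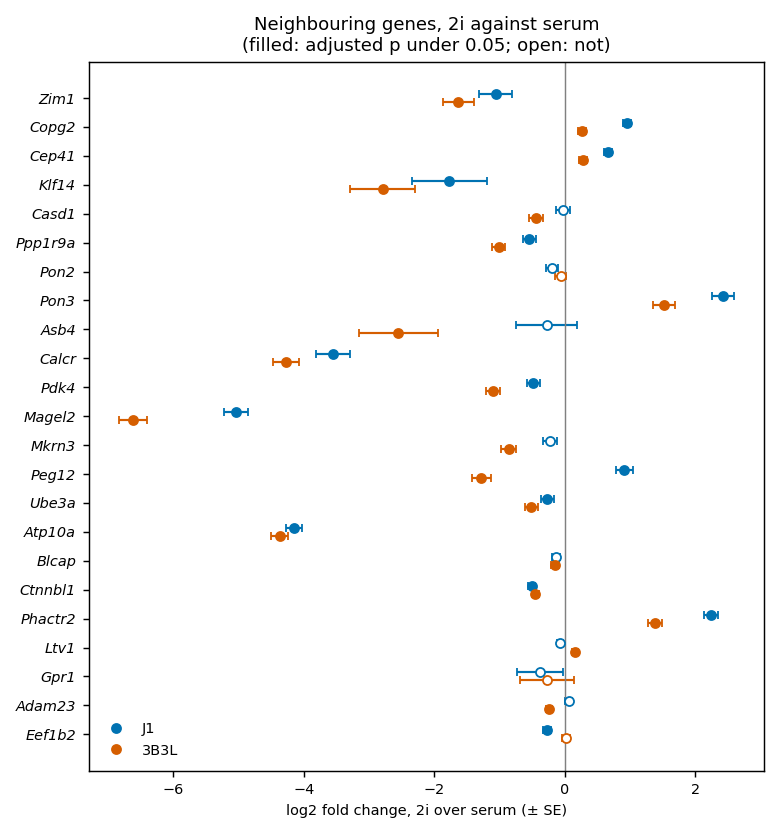
Log2 fold change ± SE of 2i over serum (horizontal axis) in J1 and 3B3L for the 23 tested neighbours of the 10 genes, with filled points for an adjusted p under 0.05. Magel2, Atp10a and Calcr lie at the far left in both lines, and Peg12 lies on opposite sides of 0.

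The gene with the most similar pattern was sought for each member, by Pearson's r of log2 CPM over the 12 libraries among all genes tested. It was Igf2 for Peg10 (r = 0.999), an imprinted gene of distal chromosome 7 that encodes a growth factor, Adamts14 for Nnat (0.998), Pim2 for Snrpn (0.997), Aqp3 for Plagl1 (0.996) and Usp26 for Sgce (0.995). For the others it was Rhox6 for Ndn (0.992), Rassf4 for Peg3 (0.991), Repin1 for Mest (0.985), Prpf4b for Zdbf2 (0.983) and Mark1 for Usp29 (0.976). The 12 libraries fall into 4 groups and are not independent points, and 1240 genes had an r over 0.95 with Peg10.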

How the data were processed

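Poly(A) RNA of 12 mESC libraries was sequenced by the authors as stranded libraries and quantified with Sailfish in a strand-aware mode on mm10 transcripts (RefSeq in their methods, Ensembl identifiers in the files). With tximport they made the gene table that was deposited, which holds estimated counts not scaled by depth or length, and they deposited TPM and estimated counts per transcript for each library. Libraries were combined in sequencing pools, and which pool held which library is not in the labels.

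The labels gave the groups and replicate numbers. Estimated counts were rounded and tested in R 4.3.3 with the quasi-likelihood test of edgeR 4.0.16. Genes were kept by filterByExpr (17885 of 39017) and libraries were scaled by TMM factors (0.97 to 1.038). The model had 1 coefficient per group over all 12 libraries, and 5 contrasts were taken. Calls were made at an adjusted p under 0.05 (Benjamini-Hochberg, over the 17885 genes of a contrast). The biological coefficient of variation was 6.49%. Log2 fold changes carry standard errors of the fit, and values in CPM use TMM library sizes. P-values rest on the spread between the 3 libraries within each group, pooled over the 4 groups and moderated across genes. Libraries outside a contrast therefore also bear on its p-values. Floors of 3 counts cover counting error only, since reads carried no molecular identifiers. CPM per kb used effective lengths weighted by the transcripts present. Transcript shares are percentages of a gene's TPM, for transcripts of at least 5% in a group. The fit was tested on simulated data.

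The members and gene lists were chosen with earlier results of these data known. Named were all members, up to 3 called genes with the largest change per contrast in each list of neighbours, other paternally expressed genes and imprint-keeping factors, and the most alike gene of each member. Alternatives were DESeq2 (1.42.0) size factors and Wald test, other filters, a replicate block, length offsets, the libraries compared only, a 2-fold threshold and leaving out each library. Positions and start windows are from RefSeq (GRCm38.p6).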

Additional observations from a re-analysis of the deposited data

Results flagged for a closer look

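The response to 2i differed between the lines for 9 of the 10 genes by a test of the difference itself, the 2i effect in 3B3L minus that in J1 on the log2 scale (edgeR, 3 libraries per group). The difference was −1.96 for Sgce, −1.68 for Usp29, −1.52 for Peg3, −1.40 for Mest, −1.12 for Plagl1, −0.81 for Ndn, −0.70 for Peg10, −0.52 for Nnat and −0.20 for Snrpn. For Mest the lines moved in opposite directions, and the media did not overlap in either line. For Plagl1 the rise was smaller in 3B3L, and for the other 7 genes the fitted fall was larger in 3B3L. Among these the fall of Usp29 in J1 did not pass (adjusted p = 0.0753), and the Snrpn difference did not pass in 11 of 18 alternatives, the replicate block among them (adjusted p = 0.0740). The Nnat difference did not pass without J1 2i replicate 3 (−0.45, adjusted p = 0.0575), 3B3L 2i replicate 1 (−0.44, 0.0840) or 3B3L 2i replicate 2 (−0.46, 0.0724). Over all genes tested 18.3% had a difference below 0 that passed. The difference equals the line gap, 3B3L against J1, in 2i minus that gap in serum. For Peg3 and Peg10 the gap was 1.61 and 0.87 in serum and did not pass in 2i (0.09 and 0.17). For Mest, Usp29 and Ndn it did not pass in serum (0.02, 0.24 and −0.06) and was −1.38, −1.43 and −0.87 in 2i. The gap of the remaining genes of the 9 passed in both media.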

How the results depend on the processing

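Of the values recomputed for single members, 904 kept their direction and their side of the threshold, 27 no longer passed, 6 came to pass and 3 changed sign. The sign changes were those of Mest between the lines in serum, which did not pass in any of its alternatives: −0.0066 with no filter, −0.0064 in the fit to the libraries compared only, and −0.028 to 0.049 with single libraries left out, the lowest without J1 serum replicate 3. Requiring a 2-fold change left 5 members called in J1, 1 between the lines in serum, 3 between the lines in 2i and 5 for the difference of the 2i effects. The replicate numbers did not pair the libraries (same-number correlations of −0.24 to 0.13). A replicate block left 9 members called in J1 and 10 in 3B3L, 6 between the lines in serum, 8 in 2i and 8 for the difference, as Zdbf2 in serum (adjusted p = 0.0594) and the Snrpn difference (0.0740) no longer passed. The Snrpn difference also did not pass with DESeq2 size factors (0.0520) or no filter (0.0998), nor did Snrpn between the lines in 2i with no filter (0.0513). Usp29 in J1 passed with at least 10 counts in every library (0.0485) and in the fit to the libraries compared only (0.0397). With length offsets Plagl1 (0.156) and Zdbf2 (0.101) did not pass between the lines in serum. With single libraries left out, transcripts with separate shares numbered 8 to 11 for 2i in 3B3L, 7 to 12 between the lines in serum and 3 to 9 in 2i (3 against 2 libraries separate more easily by construction). Depth limits Usp29 and Asb4, and also Magel2, Calcr, Klf14, Zim1 and Nap1l5. The cause of the other changes was not tested.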

Other observations

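Other paternally expressed genes, on a list of 12 of which 10 were tested (Peg13 was not matched), had 4 higher and 4 lower in 2i in J1 and 2 higher and 4 lower in 3B3L, near the shares over all genes (66.1% and 65.4% passed). The 2i effect in 3B3L minus that in J1 passed below 0 for 3 of them and above 0 for 2, and 5 did not pass (median −0.28). Over all genes 18.3% passed below 0 and 16.3% above. Slc38a4, an amino acid transporter gene, was at 192 ± 3.97 CPM in J1 serum, 106.5 ± 7.44 in J1 2i, 177.5 ± 11.8 in 3B3L serum and 32.5 ± 0.870 in 3B3L 2i (SD, n = 3). Its 2i effect was −0.85 ± 0.06 in J1 and −2.45 ± 0.06 in 3B3L on the log2 scale, and the difference was −1.60 ± 0.08 (edgeR adjusted p = 4.15e-09). Sfmbt2, a gene of a polycomb-related protein, moved in opposite directions, as Mest and Peg12 did, with 0.52 ± 0.07 in J1 and −0.94 ± 0.07 in 3B3L (difference −1.46 ± 0.10, edgeR adjusted p = 5.26e-08). Nespas, an antisense RNA of the Gnas domain, rose in both lines, by 0.43 ± 0.17 in J1 and by 1.15 ± 0.15 in 3B3L (difference 0.72 ± 0.22, edgeR adjusted p = 0.0203), from 1.17 ± 0.143 CPM in J1 serum and 1.73 ± 0.228 CPM in 3B3L serum. Inpp5f was at −0.72 ± 0.05 in J1. The remaining genes named by size were Airn, higher in 3B3L serum by 0.59 ± 0.20, and Nap1l5, at −0.78 ± 0.29 between the lines in 2i.

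Factors that keep imprints, a list of 12 genes that were all tested, had 5 higher and 3 lower in 2i in J1 and 4 higher and 4 lower in 3B3L, again near the 66.1% and 65.4% of all genes that passed. Zfp57, the zinc-finger protein of the hexamer searched in the start windows, was at 177 ± 6.78 CPM in serum and 328 ± 9.15 in 2i in J1, and at 209 ± 13.2 and 409.8 ± 14.6 in 3B3L (log2 0.89 ± 0.05 and 0.97 ± 0.05, edgeR adjusted p = 5.31e-10 and 1.45e-10). Uhrf1, the partner of the maintenance methyltransferase, rose by 1.09 ± 0.05 and 1.00 ± 0.05. Dppa3, which protects methylation in the early embryo, was at 39.0 ± 2.26 CPM in serum and 8.19 ± 0.287 in 2i in J1, and at 44.8 ± 1.27 and 4.81 ± 0.636 in 3B3L (log2 −2.25 ± 0.08 and −3.22 ± 0.08), with a difference of −0.97 ± 0.11 (edgeR adjusted p = 9.31e-06). Trim28, the corepressor recruited by ZFP57, differed in its 2i effect by 0.37 ± 0.09 (edgeR adjusted p = 0.00552). Between the lines 8 of the 12 were higher in 3B3L in serum, where 21.5% of all genes were higher. Named by size there were Atrx (0.45 ± 0.09), Zfp445 (0.36 ± 0.09) and Setdb1 (0.27 ± 0.04).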
